A study of Arabidopsis thaliana with 8 samples.

Results

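A set of 10 Arabidopsis genes of iron storage, reduction, transport and regulation was followed through the binding maps of the transcription factor GBF2: the ferritin genes FER1 (AT5G01600), FER2 (AT3G11050), FER3 (AT3G56090) and FER4 (AT2G40300), the ferric reductase genes FRO2 (AT1G01580) and FRO3 (AT1G23020), the transporter genes OPT3 (AT4G16370) and NRAMP3 (AT2G23150), and the regulator genes PYE (AT3G47640) and BTS (AT3G18290). A peak belonged to the group when the authors' files gave it the identifier of one of these 10 genes. The peak lists together hold 17 such entries among 1589, where the same site can recur in several lists, and 8 of the 10 genes have at least 1. The genes were chosen from the peak lists themselves, so their counts and scores are a description and carry no test.

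GBF2 is a bZIP protein that binds the G-box. Chromatin immunoprecipitation with a GFP antibody, followed by sequencing, located its sites in whole Columbia (Col-0) seedlings that carried pGBF2:GBF2-Ypet, which is GBF2 joined to the fluorescent protein Ypet and driven by the GBF2 promoter. Seedlings aged 5 days spent 6 h in liquid medium with 0.5 µg/mL tunicamycin, which blocks N-glycosylation and stresses the endoplasmic reticulum, or in medium with the solvent DMSO alone. Each treatment had 2 immunoprecipitated and 2 input libraries, the labels call the pairs biological replicates, and every library came from the transgenic line. The deposited values are 3 peak lists, for DMSO (320 peaks), for tunicamycin (767 peaks) and for tunicamycin-specific peaks, as the authors named them (502 peaks, all also in the tunicamycin list). They hold no value per library, so neither library depth nor replicate spread is known, and a longer list can come from deeper sequencing.

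Plants need iron for photosynthesis and respiration, but free iron in excess produces reactive oxygen. Root cells reduce ferric iron at the plasma membrane before a transporter takes it up, other carriers move it through the phloem and across the vacuole membrane, and ferritin shells in plastids hold the surplus. Under iron shortage a network of bHLH transcription factors and an E3 ubiquitin ligase adjusts these steps.

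Peaks lay at members of all 4 roles. In the tunicamycin list 8 of the 10 genes had a peak, where 2.27% of 27444 protein-coding genes did. In the DMSO list 5 of the 10 had one, against 0.849% of protein-coding genes, and in the tunicamycin-specific list 4 had one, against 1.52%. FER1, FRO2, FRO3, OPT3 and PYE had a peak in both treatments, a state shared by 0.762% of protein-coding genes. FER3, NRAMP3 and BTS had a peak in the tunicamycin list and none in the DMSO list, as 1.5% of protein-coding genes did. FER2 and FER4 had none. Counted by peaks, 5 of the 8 tunicamycin peaks of the group overlapped a DMSO peak, where 36.1% of the whole tunicamycin list did. Since the genes were chosen with the peak lists known, nothing is read from these counts against the background. Each of the 8 genes had a single peak in each list that named it.

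**Figure D1:**
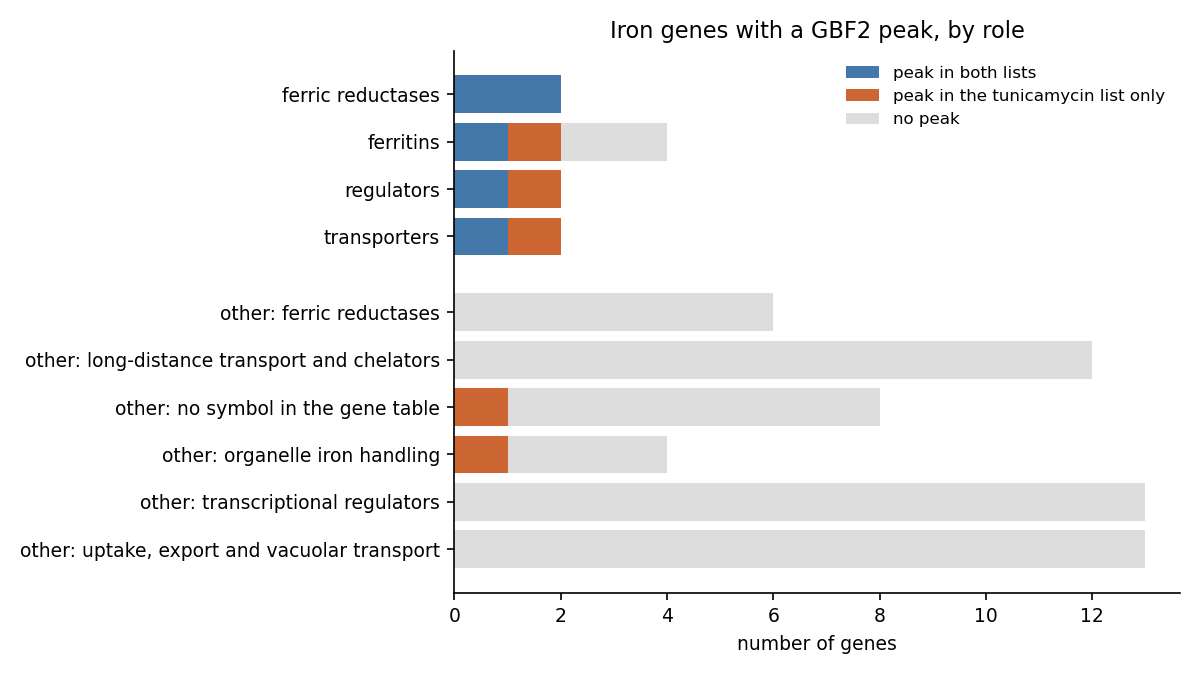
Bars give the number of iron genes (x axis) of each role with a peak in both treatment lists, in the tunicamycin list only, or in neither. The upper 4 bars are the 10 genes described here and the lower 6 bars, marked "other", are 56 further iron genes, of which 2 had a peak.

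The ferritins came first. FER1, which codes for a plastid ferritin, had a peak at chromosome 5, 229344 to 231317 in the DMSO list (TAIR10 throughout). Its score there was 3.70, at rank 51 of 320, above 84.1% of the list. The score is a value the authors give for each peak on a scale they do not state, so it orders peaks within one list only. A percentile likewise holds within its own list. The tunicamycin list had 490 peaks with no DMSO overlap, of median score 2.35, beside 2.81 for the overlapping ones. A peak in both lists can thus stand above a larger share of the tunicamycin list without any gain in binding. The tunicamycin list placed the FER1 peak at 229342 to 231248, with a score of 3.34 at rank 61 of 767, above 92.0% of that list. The authors' files class both peaks as promoter (<=1kb), which is called the proximal promoter class below.

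The FER1 peak was also in the tunicamycin-specific list, at rank 13 of 502, although the DMSO list held a peak at the same place. Its 2 versions started 2 bp apart and ended 69 bp apart, and their overlap of 1905 bp covered 96.4% of the stretch that either one spanned. Of the 277 tunicamycin peaks with a DMSO peak over at least 1 bp of their length, 29 were in the specific list (10.5%). FER1 was the only one of the 10 genes among them. The criterion behind the specific list is not given in the sources used here, and FER1 is treated below as bound in both treatments.

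FER3, a second ferritin gene, had a peak only with tunicamycin, at chromosome 3, 20815722 to 20816509. Its score was 2.64, at rank 244 of 767, above 68.2% of the list. Among tunicamycin peaks with no overlapping DMSO peak, the median score was 2.35 and the upper quartile 2.53, so the FER3 peak stood above that quartile.

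FER2, the ferritin gene known for its expression in seeds, and FER4, whose protein also reaches mitochondria, were given no peak. The files name 1 gene per peak, so a peak beside either gene could carry a neighbour's name. The next genes on both sides of FER2 and of FER4 in the order of the RefSeq table had no peak either. Counted in protein-coding genes, the nearest one with a tunicamycin peak stood 22 places from FER2 (AT3G11280) and 22 places from FER4 (AT2G40490). The ferritin family was thus split into a gene listed in both treatments, a gene listed with tunicamycin alone and 2 genes not listed.

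The ferric reductase genes both had peaks in both treatments. FRO2 codes for the main root-surface ferric reductase of iron uptake. Its DMSO peak, at chromosome 1, 206499 to 208708, had the highest score of the 10 genes in that list, 5.38 at rank 13, above 95.9% of peaks. Its tunicamycin peak, at 206490 to 208286, scored 4.19 at rank 20, above 97.4%. FRO2 thus lay near the top of each list.

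FRO2 was also the gene whose 2 peaks differed most in extent. They started 9 bp apart, but the tunicamycin peak ended 422 bp earlier, at the edge that faces the direction of transcription, and measured 1797 bp against 2210 bp. The overlap covered 80.6% of the joint stretch, which is lower than the median of 87.7% over all 278 overlapping pairs (quartiles 77.5 and 93.9%). The authors' class differed in step with it, proximal promoter for DMSO and promoter at 1 to 2 kb for tunicamycin. Such a change of class was found in 16 of the 270 overlapping pairs that were given the same gene. No replicate values are there to set an error on a peak edge, so the 422 bp cannot be set against the spread between libraries.

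FRO3, whose protein is a mitochondrial ferric reductase, had a DMSO peak at chromosome 1, 8153307 to 8154188, and a tunicamycin peak at 8153284 to 8154256. Its DMSO score was 3.19, at rank 113 of 320, above 64.7% of that list. Its tunicamycin score was 3.43, at rank 48 of 767, above 93.7% of that one. The class was proximal promoter in both lists, and its 2 versions shared 90.6% of their joint stretch.

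Among the transporters, OPT3, which loads iron into the phloem and acts in signalling of shoot iron status to the root, had the strongest tunicamycin peak of the 10 genes. It scored 4.78 at rank 13, above 98.3% of the list, at chromosome 4, 9249939 to 9251086. In the DMSO list the OPT3 peak at 9249955 to 9251076 scored 4.77 at rank 20, above 93.8%. The 2 outlines were the closest match of the group, with starts 16 bp and ends 10 bp apart and 97.7% of the joint stretch in common, above 92.4% of all overlapping pairs. OPT3 and FRO2 were the members among the 20 strongest peaks of each list.

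NRAMP3, which releases iron from the vacuole, had a tunicamycin peak alone, at chromosome 2, 9859198 to 9859862. It scored 2.35 at rank 496, close to the median of 2.35 of tunicamycin peaks without a DMSO overlap. With 665 bp it was the shortest peak of the group, and 4.04% of tunicamycin peaks were shorter.

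The regulators were split in the same way as the transporters. PYE codes for a bHLH transcription factor of the iron-deficiency response, known to repress genes such as FRO3 in roots. Its DMSO peak at chromosome 3, 17566701 to 17567739 scored 2.89 at rank 184, above 42.5% of the list, and was the weakest of the 5 in that list. The tunicamycin peak at 17566686 to 17567765 scored 2.95 at rank 128, above 83.3% of that longer list. The outlines differed by 15 bp at the start and 26 bp at the end.

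BTS, an E3 ubiquitin ligase with iron-binding hemerythrin domains that restrains the iron-deficiency response, had a tunicamycin peak alone. It lay at chromosome 3, 6273217 to 6274265 and scored 2.34 at rank 512, the lowest of the 8, above 33.2% of the list. The NRAMP3 and BTS scores both lay below the median of 2.47 of all tunicamycin peaks.

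**Figure D2:**
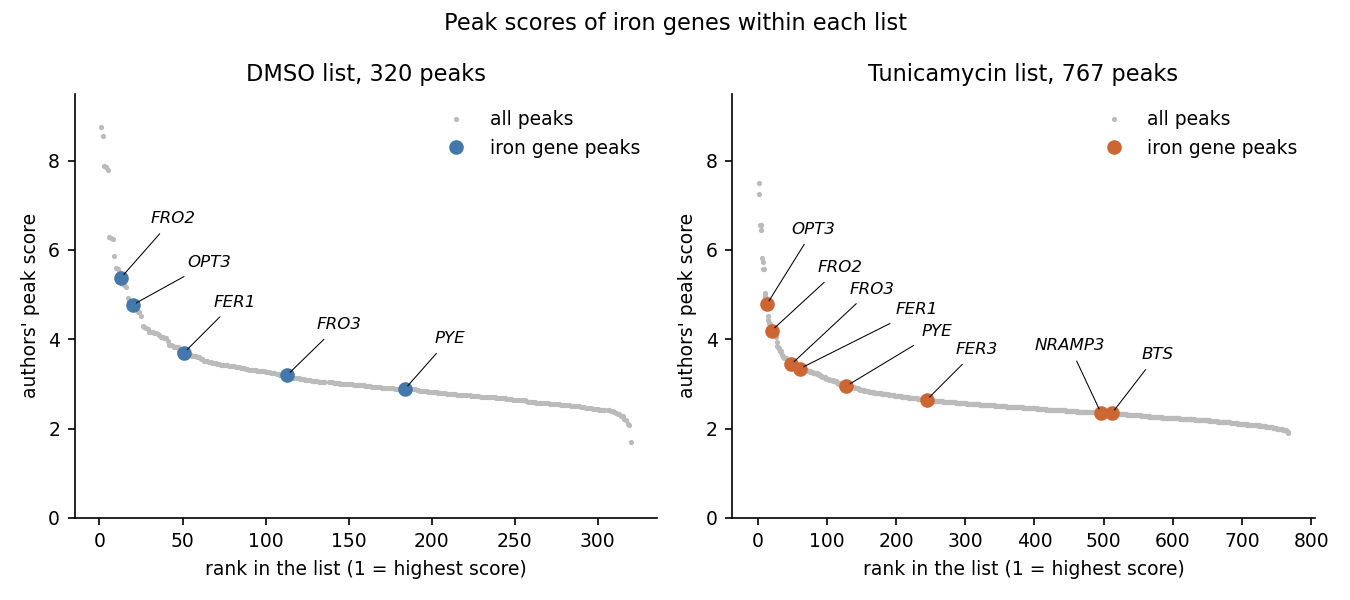
The authors' peak score (y axis) is plotted against rank within the list (x axis) for DMSO (left, 320 peaks) and tunicamycin (right, 767 peaks), with grey points for all peaks and coloured points for the iron genes. FRO2 and OPT3 stand on the steep part of both curves, and the FER3, NRAMP3 and BTS peaks, which only the tunicamycin list holds, stand on its flat part.

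Ordered by score, the DMSO list ran FRO2, OPT3, FER1, FRO3, PYE, and the tunicamycin list ran OPT3, FRO2, FRO3, FER1, PYE, FER3, NRAMP3, BTS. The 5 genes listed in both treatments held the first 5 places of the tunicamycin order, with scores from 2.95 to 4.78. The 3 listed with tunicamycin alone held the last, from 2.34 to 2.64. The whole tunicamycin list was ordered likewise, with a median score of 2.81 for peaks that overlapped a DMSO peak and 2.35 for the rest, so this order is not particular to iron genes. In the tunicamycin-specific list FER3, NRAMP3 and BTS stood at ranks 87, 266 and 281 of 502. The median of the 8 tunicamycin scores was 3.15, beside 2.47 over all 767 peaks, and that of the 5 DMSO scores 3.70, beside 2.96 over all 320. Neighbours in these orders could not be separated, since no score has an error.

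Peak lengths followed the scores only loosely. FER1 and FRO2 had the long peaks, 1907 and 1797 bp with tunicamycin, longer than 96.2% and 95.6% of that list. The other 6 measured 665 to 1148 bp, where the median of the list was 878 bp (quartiles 786 and 1080.5 bp). OPT3 reached the highest score of the group with 1148 bp, and BTS the lowest with 1049 bp. Across the 767 tunicamycin peaks, length and score had a Spearman correlation of 0.36, as a description over peaks of one list that share their libraries.

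**Figure D3:**
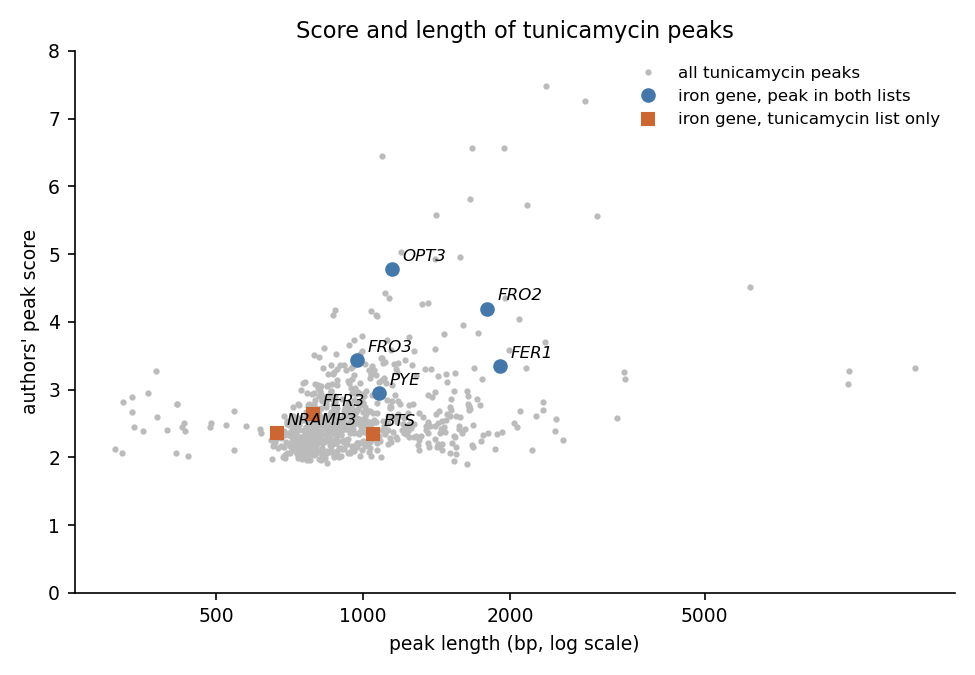
Each point is a tunicamycin peak, with its length in bp (x axis, log scale) and the authors' score (y axis); blue circles are iron genes with a peak in both lists and orange squares those with a tunicamycin peak only. FER1 and FRO2 are long, at 1907 and 1797 bp, and OPT3 reaches the highest score of the group, 4.78, at 1148 bp.

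All 5 DMSO peaks of the group and 7 of the 8 tunicamycin peaks were of the proximal promoter class, FRO2 under tunicamycin being the exception. Over the whole lists that class held 69.1% of DMSO and 76.0% of tunicamycin peaks. The authors' strand column gives 1 for FRO2, PYE and BTS and 2 for FER1, FER3, FRO3, OPT3 and NRAMP3. These codes are read here as the forward and reverse strand of the chromosome.

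**Figure D4:**
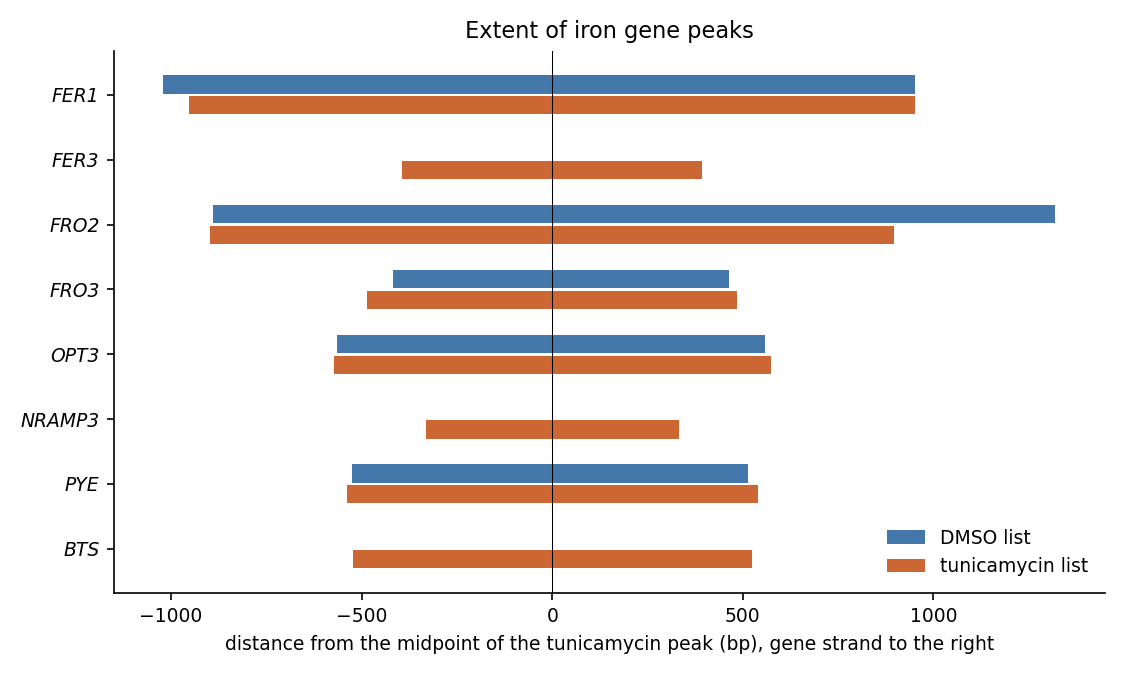
Bars show the extent of each peak as distance in bp from the midpoint of the tunicamycin peak (x axis), turned so that the gene's direction of transcription is to the right, with DMSO in blue and tunicamycin in orange. The outlines nearly coincide for FER1, FRO3, OPT3 and PYE, while the FRO2 peak ended 422 bp earlier with tunicamycin, and FER3, NRAMP3 and BTS have no DMSO bar.

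In the tunicamycin list the median gap from a peak of the group to the nearest other peak was 29584 bp, beside 33531 bp over the list. In the DMSO list it was 268253 bp, beside 82994.5 bp. None of the 20 genes next to the 10 members in the RefSeq table had a peak in any list, among them FRO1, the neighbour of FRO2, and LPR1, the neighbour of FRO3. Peaks lay 2 genes away in 2 cases, which were named after their values were seen. CYP86A4, a fatty acid hydroxylase gene, had a peak beyond FRO1, with 10744 bp between it and the FRO2 peak in the DMSO list and 10972 bp in the tunicamycin list. It scored higher than FRO2 in each, 7.78 and 6.57. GH3.3, an auxin-conjugating enzyme gene, had a tunicamycin peak (score 2.61) 6435 bp from that of NRAMP3. For the other members the nearest tunicamycin peak was 13989 bp (FER3) to 91228 bp (FRO3) away, where the median over the list was 33531 bp.

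A further 56 iron genes were listed beside the 10. They are what is left of an iron gene list once the members, chosen with the peak lists known, had been taken out. No difference from the background is therefore read from their share. In the DMSO list 0 of the 56 had a peak, and in the tunicamycin list 2 had one. Together with the 10 members, 5 of 66 iron genes had a DMSO peak and 10 of 66 a tunicamycin peak, where 0.849% and 2.27% of protein-coding genes did. All 5 and 8 of the 10 were members chosen with the lists known, so this is no rate for iron genes in general. The 2 further genes were IREG3, of the ferroportin family of metal exporters, at chromosome 5, 9433141 to 9433917 (score 2.22, rank 614), and AT2G30766, to which the gene table gives no symbol, at chromosome 2, 13106653 to 13107317 (score 2.28, rank 560). Both were proximal promoter peaks, were in the tunicamycin-specific list and scored lower than all 8 of the group. Nothing is read from that order of scores either, because the members were chosen with the lists known.

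No peak was assigned to the 13 transcription factor genes that carry a symbol among the 56, which include FIT, the root bHLH factor that turns on FRO2, its partners BHLH38 and BHLH39, and ILR3. None was assigned to the 13 named genes of uptake, export and vacuolar transport, such as IRT1, the main root iron transporter, and NRAMP4, the close relative of NRAMP3. The other 6 FRO genes, FRO1 and FRO4 to FRO8, had none either, nor had the 12 named genes of long-distance transport and chelators, among them the nicotianamine synthase genes NAS1 to NAS4. Of the 8 genes without a symbol, which were assigned no role here, AT2G30766 had its peak and the other 7 had none. Over all protein-coding genes only 0.849% had a DMSO peak and 2.27% a tunicamycin peak. An absence in groups this small therefore says little about their genes.

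The 3 genes nearest to OPT3 in their place in both lists were not among the listed iron genes. Among 256 genes with peaks in both, the smallest summed differences in percentile rank were those of PRR7, a clock gene (1.51 percentage points; ranks 16 and 15), LYK4, a gene for a LysM receptor kinase (1.67; ranks 22 and 21), and AT1G02660 (2.14; ranks 14 and 11). The measure uses 2 values per gene, and the cut at 3 genes is arbitrary. FRO2 also stood near OPT3, above 95.9% of the DMSO and 97.4% of the tunicamycin list, where OPT3 stood above 93.8% and 98.3%.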

How the data were processed

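Per the submitters' processing notes, MACS2 2.1.2, Bowtie 1.1.2, SAMtools 1.8, cutadapt 1.8.1 and FastQC 0.11.5 were used with the build TAIR10. What is not given in the sources used here is their settings, the peak threshold, how input libraries entered and whether replicates were pooled. Deposited by the authors were 3 peak lists, each peak with a score (signal value, per the file headers), a length, a position class and 1 gene. Lengths equal end minus start plus 1, so coordinates are 1-based.

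Peaks were selected by the authors' gene identifier. Overlap meant at least 1 bp. Rank and percentile were computed within a list. Names, gene kinds and gene order came from a RefSeq table of TAIR10.1, whose coordinates were not set against peaks; 48 of the 56 further iron genes carry a matching symbol there. Members and gene lists were chosen with earlier results of these data known. Named genes were the members, listed iron genes, neighbours with a peak, and the 3 genes nearest in rank to the strongest member listed in both treatments; CYP86A4, GH3.3, AT3G11280 and AT2G40490 were added after their values were seen, as were FRO1 and LPR1 as neighbours without a peak. Promoter motifs and protein identity had been planned and were not analysed here, as no sequence was used. Overlap and distance functions were tested on simulated data. Depth is unknown. Software was matplotlib 3.10.9, SciPy 1.17.1, NumPy 2.4.6, pandas 2.3.3 and Python 3.11.15.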

Additional observations from a re-analysis of the deposited data

How the results depend on the processing

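Of 17 recomputed counts, 14 stayed within 1.5 times the reported one. With the strongest 50% of each list, members in the tunicamycin-specific list fell from 4 to 2 (FER1 and FER3) and the further iron genes in the tunicamycin list from 2 to 0, fewer because fewer peaks enter; 6 members kept a tunicamycin peak, 4 a DMSO peak and 4 an overlap. Counting only genes with a symbol in the RefSeq table, a choice made after seeing the data, left 1 of the further iron genes with a tunicamycin peak. With proximal promoter peaks alone 7 members had a tunicamycin peak and 4 an overlap, since the FRO2 peak leaves it. Midpoints within 200 bp left 4 overlaps, without FRO2. Giving members the peaks of adjacent genes could change neither treatment's count, since no adjacent gene had a peak, and both counts are among the 14. The further iron genes had 0 DMSO peaks, so neither the strongest 50% nor the proximal promoter class could change that count. Both of these recomputed counts of 0 are also among the 14 and say nothing about stability. Ranks within that class, also added later, moved by at most 5.01 percentage points. No paired analysis was possible because no list holds values per library, and no replicate could be left out. The motif and protein alternatives were not run. Unknown depth limits every comparison between lists.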
